A study of Homo sapiens with 4 samples.

Results

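The 10 mucin genes MUC1, MUC2, MUC3A, MUC4, MUC5AC, MUC5B, MUC6, MUC12, MUC13 and MUC20 were examined in RNA sequencing of HepG2 cells. They were selected on gene symbol and with the AMF and DMSO expression values of these same libraries in view, and all 10 had a row among the 30863 genes of the deposited table. Their values in that comparison are therefore a description, without a test. Mucins are large glycoproteins whose stretches of repeated serine, threonine and proline carry dense O-linked sugars. Secreted gel-forming mucins cross-link into mucus, whereas membrane-bound mucins line the apical surface of epithelial cells and can signal through their cytoplasmic tails. Stomach, gut, airway and bile duct epithelia are their usual sources, and hepatocytes make little of them.

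HepG2 is an established human liver cancer line, which the labels call hepatoblastoma, of wild-type genotype. The AMF group (2 libraries) was treated for 48 h with a compound that the series title names amentoflavone, a plant biflavonoid, and the DMSO group (2 libraries) with the solvent for 48 h. The treatment protocol states 90 µM AMF, whereas the series design speaks of Tub B at 80 µM, and which of these the cells received could not be settled. Poly(A)-selected RNA was sequenced without keeping strand, and the labels do not say whether replicates were separate cultures, so a p-value here reflects library-to-library spread that may be technical alone.

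Libraries held 24226586 to 26966210 reads counted in genes. Of 10 hepatocyte markers all were found, with a summed level of 384231 to 404825 normalized counts in AMF and of 502316 to 516540 in DMSO. A normalized count is a read count divided by the size factor of its library, so that 1 read equals 0.929 to 1.03 of it. Changes are AMF minus DMSO on the scale log2(normalized count + 1), which shrinks the difference between libraries where reads are few. They compare means of logs, so a gene with few reads can show a change beyond its ratio of means, as MUC1 does below. In a bulk sample fewer cells that make a transcript and less of it per cell cannot be told apart.

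RefSeq start windows (GRCh38.p14, 250 bases before to 50 after a gene's start) matched 6 of the 10 genes: MUC1, MUC2, MUC3A, MUC4, MUC12 and MUC13. The 3 below are shown because MUC2 and MUC3A had higher levels in AMF libraries and MUC13, the mucin with the highest level per length, had about the same level in both groups. Capitals mark matches, on either strand, to GCGTG (the core bound by the aryl hydrocarbon receptor), TTTAT (a core bound by CDX factors), TGTTTAC (bound by FOXA factors) or TATAAA (the TATA box).
MUC2, chr11:1074624-1074923, plus strand: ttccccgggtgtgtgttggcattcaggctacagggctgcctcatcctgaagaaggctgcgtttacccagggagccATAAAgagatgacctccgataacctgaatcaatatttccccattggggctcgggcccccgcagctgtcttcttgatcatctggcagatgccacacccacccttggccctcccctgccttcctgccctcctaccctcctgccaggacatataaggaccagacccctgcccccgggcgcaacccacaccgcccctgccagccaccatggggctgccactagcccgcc
MUC3A, chr7:100949284-100949583, plus strand: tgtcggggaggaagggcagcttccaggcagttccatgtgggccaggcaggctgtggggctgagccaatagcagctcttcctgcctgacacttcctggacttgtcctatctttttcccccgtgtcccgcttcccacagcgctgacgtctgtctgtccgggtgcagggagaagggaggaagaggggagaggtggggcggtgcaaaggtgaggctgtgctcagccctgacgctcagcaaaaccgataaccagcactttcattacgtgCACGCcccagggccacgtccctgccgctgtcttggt
MUC13, chr3:124934702-124935001, minus strand: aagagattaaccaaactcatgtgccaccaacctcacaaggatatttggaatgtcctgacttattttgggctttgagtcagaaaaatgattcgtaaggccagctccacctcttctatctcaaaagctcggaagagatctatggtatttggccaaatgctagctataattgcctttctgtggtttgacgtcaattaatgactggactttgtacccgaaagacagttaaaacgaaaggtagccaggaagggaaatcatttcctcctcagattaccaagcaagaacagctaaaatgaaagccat
The MUC2 window held 1 TTTAT match and none of the other motifs, the MUC3A window 1 GCGTG match, and the MUC13 window none of the 4. Of the windows not shown, that of MUC4 held 1 GCGTG match, and that of MUC12 1 GCGTG, 1 TTTAT and 1 TATAAA match. Each MUC1 window held 1 TTTAT and 1 TATAAA match. No difference between the groups was detectable for MUC1, MUC4 or MUC12, as given below. Over 35116 such windows, 36.5% held GCGTG, 34.9% TTTAT, 3.4% TGTTTAC and 11.5% TATAAA, which overlaps TTTAT when read on the other strand. A match describes letters and shows no binding. The MUC13 window was 41.0% G and C, against 57.7% to 65.7% in the windows of the other 5 genes.

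Repeats within the transcript were frequent in some of these genes and nearly absent in others, and they bear on how reads can be placed. The 24-base stretch found most often in the longest GENCODE release 29 transcript is shown for MUC5AC and MUC5B, neighbours on chromosome 11 whose levels differed in opposite directions between the groups. It is in capitals because the whole of it recurs.
MUC5AC, 16 copies: CTCCTACAACCAGCACAACCTCTG
MUC5B, 6 copies: ACTCCGGGGACGACCTGGATCCTC
Stretches of 50 bases that recur within the same transcript made up 21.4% of the MUC5AC transcript (17448 bases), 29.2% of MUC5B and 61.5% of MUC12. They made up only 1.9% of MUC3A, 1.8% of MUC6 and 0.0% of MUC13. Stretches shared with transcripts of another gene made up 0.4% of MUC5AC and 0.4% of MUC5B, which share them with each other. For MUC20 that share was 69.1%, with MUC20-OT1 and the pseudogene MUC20P1, so MUC20 reads may be split among these genes. MUC20-OT1 overlaps 1820 bases of MUC20 exons on the same strand. Exons of MUC5B overlap 434 bases of the antisense gene MUC5B-AS1, and those of MUC3A and MUC12 overlap other antisense genes. Without strand, reads of such a pair cannot be told apart.

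Among the gel-forming mucins, MUC5AC, the mucin of the stomach surface and the airway, was the one with most reads in AMF. It had 731 and 701.5 normalized counts (787 and 681 reads) in AMF replicates 1 and 2, against 16.99 and 10.3 (17 and 10 reads) in DMSO replicates 1 and 2. The lowest AMF library thus stood far above the highest DMSO library, and the AMF pair lay within 0.059 of each other on the log2 scale. The means were 716 ± 20.7 in AMF and 13.6 ± 4.76 in DMSO (SD, n = 2 each), a log2 change of 5.65. Pooled reads gave a ratio of 52.4 with a 95% exact interval of 35.9 to 79.8, which, as for every such interval here, covers counting error only. Of 23828 genes tested, 12 had a larger log2 change.

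MUC2, the main mucin of intestinal goblet cells, was scarce in both groups. It had 16.7 and 16.5 normalized counts in AMF replicates 1 and 2, against 5.00 and 3.08 in DMSO replicates 1 and 2, a log2 change of 1.83. All 4 values rest on 18, 16, 5 and 3 reads in the same order, and the groups did not overlap. MUC6, the mucin of the gastric glands, had 15.8 and 31.9 normalized counts in AMF replicates 1 and 2 and 7.997 and 11.3 in DMSO replicates 1 and 2 (log2 change 1.16). Its AMF replicates differed by 0.97 on the log2 scale, nearly as much as the groups.

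MUC5B, made by airway and salivary glands and by the gallbladder, was the gel-forming mucin that stood lower. It had 9.29 and 17.5 normalized counts in AMF replicates 1 and 2, against 41.0 and 42.1 in DMSO replicates 1 and 2, so both AMF libraries lay below both DMSO libraries. The means were 13.4 ± 5.82 in AMF and 41.5 ± 0.784 in DMSO (SD, n = 2 each), a log2 change of -1.62. Leaving out 1 library kept the MUC5AC change between 5.32 and 5.99. That of MUC5B was -1.2 without AMF replicate 1, -2.05 without AMF replicate 2, -1.64 without DMSO replicate 1 and -1.61 without DMSO replicate 2. The AMF replicates of MUC5B differed by 0.848 on the log2 scale. The pooled read ratio was 0.317 (95% exact interval 0.198 to 0.496). MUC5AC and MUC5B lie next to each other in the RefSeq gene order, after MUC6 and MUC2 on chromosome 11, and MUC5B was the member of that group of 4 with a lower level in AMF.

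**Figure D1:**
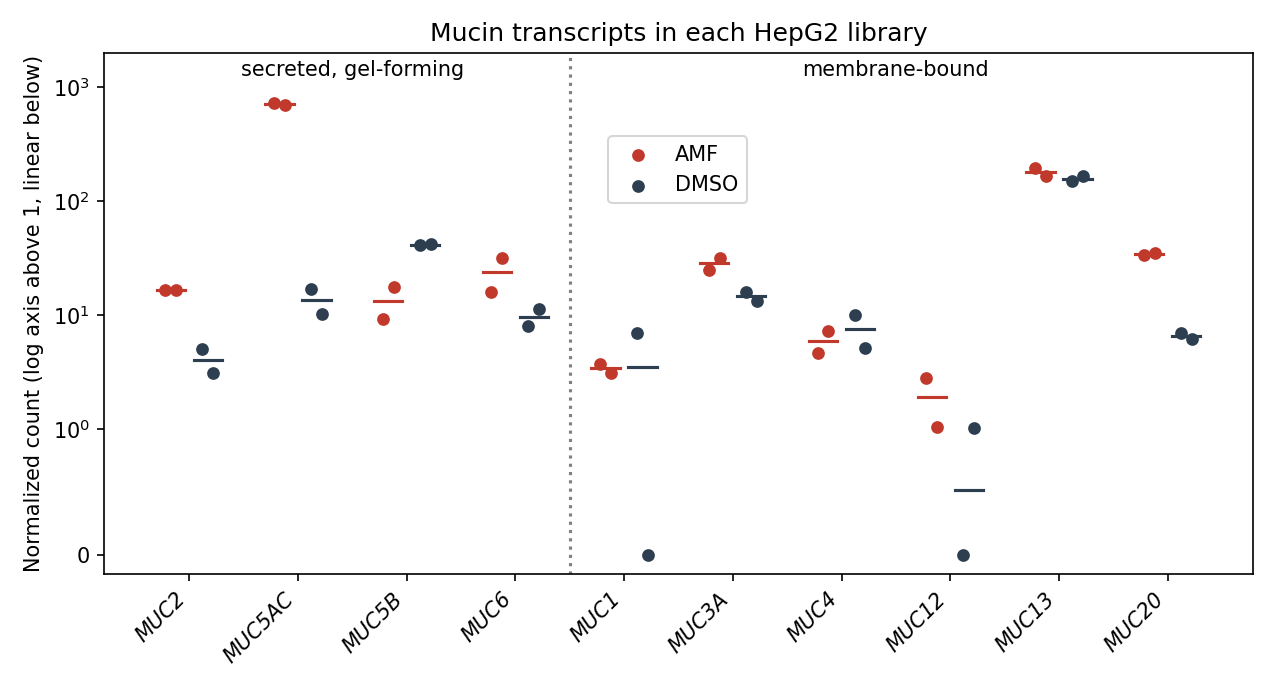
Normalized counts of the 10 mucins (x axis) in each library on an axis that is logarithmic above 1 and linear below, with AMF in red, DMSO in dark blue, a point per library and a line at each mean of 2. MUC5AC sat at 701.5 and 731 in AMF against 10.3 and 16.99 in DMSO, MUC5B was lower in both AMF libraries, and the MUC13 points of the groups lay close together.

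Of the membrane-bound mucins, MUC13, found on gastric and intestinal epithelia, had the most reads. It had 194 and 167 normalized counts in AMF replicates 1 and 2, against 149 and 166 in DMSO replicates 1 and 2, a log2 change of 0.19. The lower AMF value and the higher DMSO value differed by under 1 normalized count, so the groups all but touched. The pooled read ratio was 1.15 (95% exact interval 0.987 to 1.34).

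MUC20, a mucin of the kidney and other epithelia that binds the receptor MET, had 33.4 and 35.0 normalized counts in AMF replicates 1 and 2, against 6.997 and 6.16 in DMSO replicates 1 and 2. Replicates lay within 0.065 of each other in AMF and 0.16 in DMSO on the log2 scale, and the log2 change was 2.22. The pooled read ratio was 5.19 (95% exact interval 2.85 to 10.2), for reads that MUC20 may share with MUC20-OT1 and MUC20P1 as given above. MUC3A, a mucin of the intestinal brush border, had 25.1 and 31.9 normalized counts in AMF replicates 1 and 2, against 16.0 and 13.4 in DMSO replicates 1 and 2 (log2 change 0.91), without overlap. The pooled read ratio of MUC3A was 1.93 (95% exact interval 1.21 to 3.12).

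The other membrane-bound mucins were near the limit of detection. MUC4, a ligand-like partner of the receptor ERBB2, had 4.64 and 7.21 normalized counts in AMF replicates 1 and 2 and 10.00 and 5.13 in DMSO replicates 1 and 2, with overlapping groups. MUC1, the mucin of most glandular surfaces, had 3.71 and 3.09 in AMF replicates 1 and 2 and 6.997 and 0.0 in DMSO replicates 1 and 2. A count of 0 reads allows a level of up to 3.08 normalized counts in that DMSO library (3 reads). The direction of MUC1 hung on 1 library: its log2 change was 0.63 with all libraries, 2.13 without DMSO replicate 1 and -0.86 without DMSO replicate 2, and its ratio of mean normalized counts was 0.973. That of MUC4 was -0.27 with all libraries and 0.15 without DMSO replicate 1. MUC12, of the colon surface, had 3 and 1 reads in AMF replicates 1 and 2 and 0 and 1 reads in DMSO replicates 1 and 2, a pooled ratio of 3.86 with a 95% exact interval of 0.382 to 190.0. No difference was detectable at this depth for MUC1, MUC4 or MUC12.

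**Figure D2:**
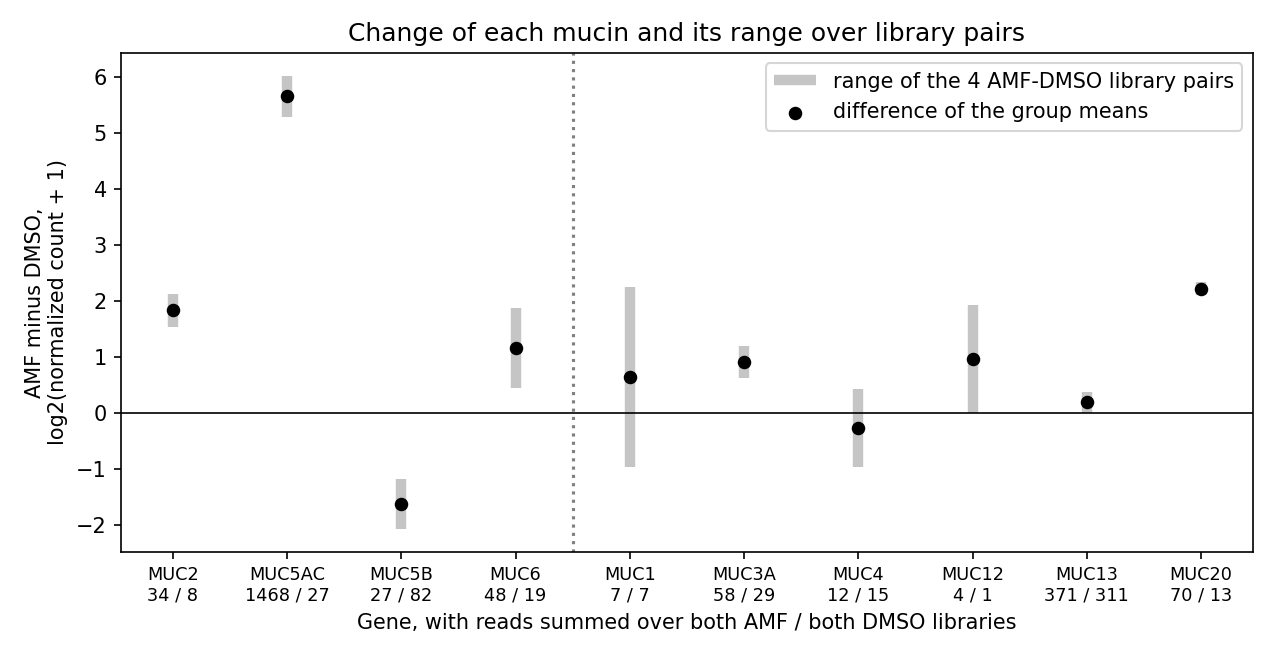
AMF minus DMSO on the log2(normalized count + 1) scale (y axis) for each mucin (x axis), with a point for the difference of the group means and a grey bar from the lowest to the highest of the 4 library pairs; under each name stand the reads summed over AMF and over DMSO. The bars of MUC1 and MUC4 cross 0, those of MUC12 and MUC13 reach it, that of MUC5B lies below it, and that of MUC5AC spans 5.29 to 6.02.

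Counted together, 4 of the 10 mucins passed an adjusted p of 0.05 in limma across all genes, MUC5AC, MUC20 and MUC2 upwards and MUC5B downwards, where 31.8% of all 23828 genes tested passed, 15.6% upwards and 16.2% downwards. In 7 of the 10 both AMF libraries were above both DMSO libraries, as in 33.8% of all genes tested, and in 1 they were below, as in 29.7%, so that the groups did not overlap in 8 of the 10 and in 63.4% of all genes tested. For MUC12 and MUC13 that order came from the size factors alone. AMF replicate 2 and DMSO replicate 2 had the same number of reads, 1 for MUC12 and 162 for MUC13. Nothing is read from these counts, because the genes were chosen with this comparison known. All 10 had a mean of at least 1 normalized count and were tested, 1 of them, MUC12, with a DMSO mean under 1. Without AMF replicate 1 or 2, 0 mucins passed with limma-trend, and 1 passed with voom on the recovered reads. The median log2 change of the 10 was 0.94, beside 0.04 over all genes tested.

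The make-up of the mucin reads differed between the groups. MUC5AC took 70.5% (95% Wilson interval 67.8 to 73.1) and 69.3% (66.3 to 72.1) of the reads of the 10 mucins in AMF replicates 1 and 2, against 6.54% (4.12 to 10.2) and 3.97% (2.17 to 7.15) in DMSO replicates 1 and 2. MUC13 took 18.7% and 16.5% in AMF replicates 1 and 2, against 57.3% and 64.3% in DMSO replicates 1 and 2. MUC5B took 0.896% and 1.73% in the AMF libraries and 15.8% and 16.3% in the DMSO libraries. The mucin reads numbered 1116 and 983 in AMF and 260 and 252 in DMSO. MUC13 itself had 209 and 162 reads in AMF and 149 and 162 in DMSO, so its share was lower without fewer reads. In sum, the 4 gel-forming genes held 74.6% and 75.8% of the mucin reads in AMF and 27.3% and 25.8% in DMSO. Of these 4, MUC5AC alone had a higher share in both AMF libraries than in both DMSO libraries. MUC2 held 1.61% and 1.63% in AMF and 1.92% and 1.19% in DMSO, and MUC6 1.52% and 3.15% in AMF and 3.08% and 4.37% in DMSO.

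**Figure D3:**
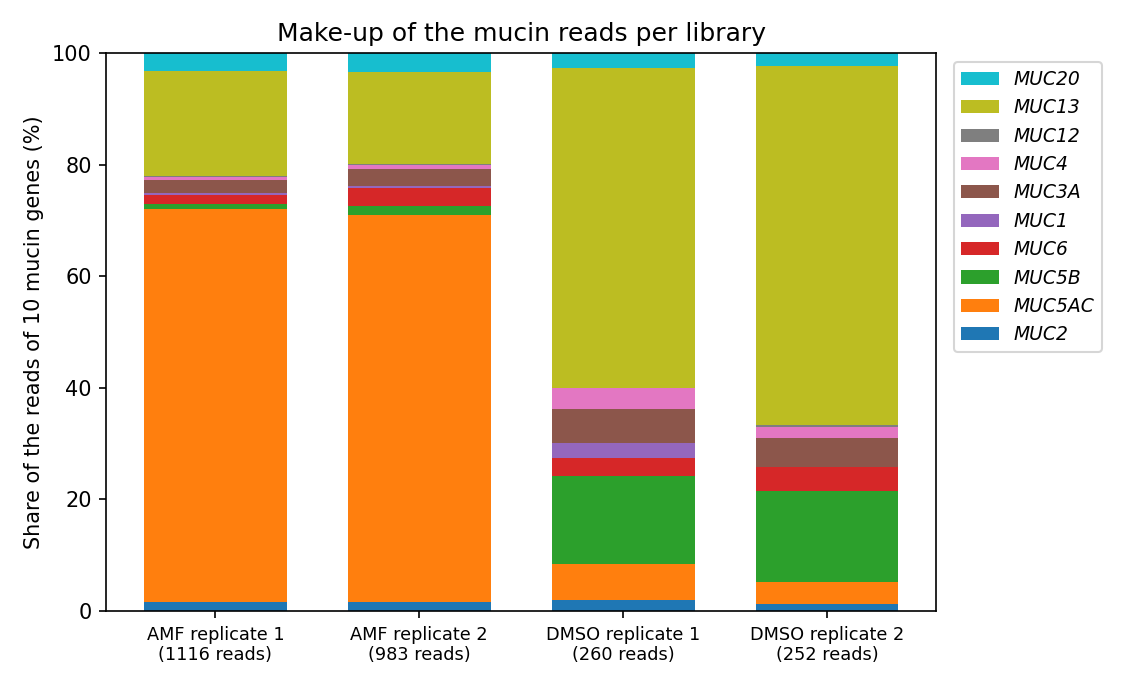
Share of the reads of the 10 mucin genes (%, y axis) held by each gene in AMF replicates 1 and 2 and DMSO replicates 1 and 2, with the number of reads under each bar. MUC5AC (orange) fills 69.3% and 70.5% of the AMF bars, and MUC13 (olive) 57.3% and 64.3% of the DMSO bars.

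Per length of merged exons, MUC13 stood first in both groups, with a mean of 2.06 RPKM (reads scaled to exon length and library size) in AMF and 1.78 RPKM in DMSO. MUC5AC came second in AMF at 1.67 and 1.61 RPKM in replicates 1 and 2, below both MUC13 values of 2.22 and 1.91, and was sixth in DMSO at 0.0382 and 0.0233 RPKM. MUC20 was the third in both groups (mean 0.322 RPKM in AMF and 0.061 in DMSO). In AMF, MUC6 (0.0748 and 0.152 RPKM) and MUC3A (0.088 and 0.113 RPKM) followed and overlapped each other, then MUC2 at a mean of 0.0524 RPKM. In DMSO, MUC5B was second at 0.0863 and 0.0896 RPKM, and MUC3A, MUC6 and MUC5AC overlapped with their neighbours in the order. MUC12 was last in both groups. Among 21562 genes with a length, MUC5AC had an average percentile of 54.3 in AMF and of 24.1 in DMSO on this scale, and MUC13 of 57.1 in AMF and 55.5 in DMSO.

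The 3 genes whose profile over the 4 libraries was nearest to that of MUC5AC were AQP3 (a water and glycerol channel), KRT37 (a hair keratin) and LRCOL1, by Euclidean distance of the log2 values centred on the DMSO mean, among the 15845 genes averaging 10 or more normalized counts. AQP3 had 2040 and 2121 normalized counts in AMF replicates 1 and 2, against 49.98 and 39.0 in DMSO replicates 1 and 2, at a distance of 0.304. KRT37 lay at 0.369 and LRCOL1, with 0 reads in both DMSO libraries, at 0.549. Nearest to MUC5B were LINC00479 (0.143), the growth factor gene CSF3 (0.241) and LINC01293 (0.243), all of them with few reads.

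The genes that build, carry or regulate mucins were read from lists that do not contain the 10. These lists were chosen with earlier results of these data known. The 22 genes named by rule had the largest changes of their list past an adjusted p of 0.05, at a mean of at least 10. Their p-values are therefore those of a selection. All values come from the fit over all genes. In that fit 31.8% of the 23828 genes tested passed, 15.6% upwards and 16.2% downwards. With only genes averaging 10 or more normalized counts fitted, 7752 of 15845 passed. Without AMF replicate 1 or 2 limma-trend called 0 genes of any list. Those 2 fits had 0 calls over all genes too, with 6575 and 6387 genes at an unadjusted p under 0.05, and voom on the recovered reads called 1379 and 1315 genes there. The calls of the 22 genes named from the lists by rule were followed in voom without each library in turn. Kept were those of AGR2, TGM2, CDX2, FOXA3, GATA6, GCNT3, ST6GALNAC4, LGALS3, SOS1, ERBB2 and ERBB3. Without AMF replicate 1 or 2 these lay only just under the threshold, and others such as B4GALT1 just above it. That split therefore does not part firm genes from weak ones. The remaining named genes lost their call in voom without AMF replicate 1 or 2. In limma-trend, KLF4, GCNT1, SLC12A8, MCAM and PODXL also lost theirs without either DMSO library, FCGBP without DMSO replicate 1 and SELPLG without DMSO replicate 2.

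Among mucus partners and assembly factors, AGR2 rose and the mucus components TGM2 and FCGBP fell. AGR2, a disulfide isomerase of the endoplasmic reticulum that the mouse gut needs to make Muc2, had 601 and 661 normalized counts in AMF replicates 1 and 2, against 49.0 and 38.0 in DMSO replicates 1 and 2. The groups lay well apart, with a log2 change of 3.84, SE 0.152 (adjusted p = 2.38e-10 with limma). TGM2, a cross-linking transglutaminase, had 1135 and 1048 in AMF replicates 1 and 2 and 2120 and 2315 in DMSO replicates 1 and 2 (-1.02, limma adjusted p = 2.61e-08). FCGBP, a mucus protein that binds mucins, was at 745 ± 18.6 in AMF and 994 ± 70.8 in DMSO (SD, n = 2 each; -0.41, limma adjusted p = 5.17e-04). Of 22 listed genes 14 had a row and 11 were tested, of which 1 rose, 2 fell and 8 did not pass, with a median log2 change of 0.06. The share that passed was 27.3%, beside 31.8% of all genes tested. In voom, 2 of the 11 passed without either AMF library. The trefoil peptides secreted with mucus were all but absent, TFF1 at 0.929 and 2.06 normalized counts in AMF replicates 1 and 2 and 0.0 in both DMSO libraries, and TFF3 at 0.0 and 2.06 in AMF and 0.9996 and 2.05 in DMSO. Exons of TGM2 overlap those of RPRD1B.

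Enzymes that start O-glycans, the GALNT family, add the first sugar to serine and threonine. Of 20 listed, 16 had a row and 14 were tested, of which 4 rose, 0 fell and 10 did not pass (median log2 change 0.26). The share that passed was 28.6%, beside 31.8% of all genes tested (15.6% upwards and 16.2% downwards). At an unadjusted p under 0.05 in limma, 5 stood higher and 0 lower. GALNT10 (0.29, SE 0.0574, limma adjusted p = 0.00124) and GALNT2 (0.28, SE 0.0479, limma adjusted p = 3.74e-04) rose by little from high levels. GALNT6 and GALNT5, named after their values were seen because their means were under 10, also passed. GALNT6 had 17.6 and 16.5 normalized counts in AMF replicates 1 and 2, against 0.0 and 1.03 in DMSO replicates 1 and 2. On pooled reads the GALNT6 ratio was 33.7 (95% exact interval 5.67 to 1371). GALNT5 had 11.1 and 17.5 in AMF and 5.00 and 3.08 in DMSO. Without AMF replicate 1 or 2, 0 of them passed voom. Exons of GALNT6, GALNT2 and GALNT10 overlap those of other genes.

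Enzymes that extend O-glycans moved in both directions. Of 30 listed, 26 were tested, of which 8 rose, 6 fell and 12 did not pass, with a median log2 change of 0.32. The share that passed was 53.8%, beside 31.8% of all genes tested. With only genes averaging 10 or more normalized counts fitted, 13 of 20 of these enzymes passed, beside 7752 of 15845 genes. The branching enzyme GCNT3, which makes the core structures of mucin glycans, had 989 and 1063 normalized counts in AMF replicates 1 and 2, against 395 and 419 in DMSO replicates 1 and 2 (1.33, SE 0.0793, limma adjusted p = 1.34e-08). The sialyltransferase ST6GALNAC4 was at 1567 ± 66.7 in AMF and 767 ± 27.8 in DMSO (SD, n = 2 each; 1.03, limma adjusted p = 2.94e-08). The galactosyltransferase B4GALT1 fell to 2132 ± 48.6 in AMF, against 3542 ± 257 in DMSO (SD, n = 2 each; -0.73, limma adjusted p = 2.06e-07). GCNT1, a second branching enzyme, fell to 27.9 and 8.24 in AMF replicates 1 and 2, against 35.0 and 47.2 in DMSO replicates 1 and 2 (-1.35, limma adjusted p = 0.0371). Its log2 change ranged from -2.17 without AMF replicate 1 to -0.53 without AMF replicate 2. The GCNT1 call was lost in limma-trend without any 1 of the 4 libraries (adjusted p of 0.139 to 0.431), with a pseudocount of 0.1 (0.101) and with no filter on low values (0.119). Voom called 5 and 4 genes of the list without AMF replicates 1 and 2. Exons of B4GALT1 overlap those of B4GALT1-AS1, and those of GCNT1 overlap PRUNE2.

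Of 26 tested transcription factors known to act on mucin genes, 6 rose, 14 fell and 6 did not pass. The share that passed was 76.9%, beside 31.8% of all genes tested, and 25 of the 26 averaged 10 or more normalized counts. The median log2 change of the 26 was -0.21. Their mean was 0.14, of the opposite sign. CDX2, an intestinal factor that activates MUC2 in gut cells, had 109 and 122 normalized counts in AMF replicates 1 and 2, against 0.9996 and 2.05 in DMSO replicates 1 and 2. This was 117 and 118 reads in AMF against 1 and 2 in DMSO, a pooled ratio of 75.5 (95% exact interval 25.5 to 369), with a limma adjusted p = 1.50e-07. KLF4, a goblet cell factor, had 43.6 and 52.5 in AMF and 27.0 and 22.6 in DMSO (0.93, limma adjusted p = 0.0254), a call lost without any 1 of the 4 libraries in limma-trend and in voom, and without a filter on low values. GATA6, a factor of gut and liver endoderm, had 221 and 225 in AMF and 449.8 and 433 in DMSO (-0.98, limma adjusted p = 3.18e-06). FOXA3, a liver and goblet cell factor, was at 468 ± 13.6 in AMF and 915 ± 38.8 in DMSO (SD, n = 2 each; -0.96, limma adjusted p = 2.69e-07). SPDEF, the factor that drives goblet cell differentiation, was low at 2.79 and 11.3 in AMF and 1.999 and 3.08 in DMSO, with overlapping groups. Voom called 13 genes of this list without either AMF library. Exons of GATA6 overlap those of GATA6-AS1.

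**Figure D4:**
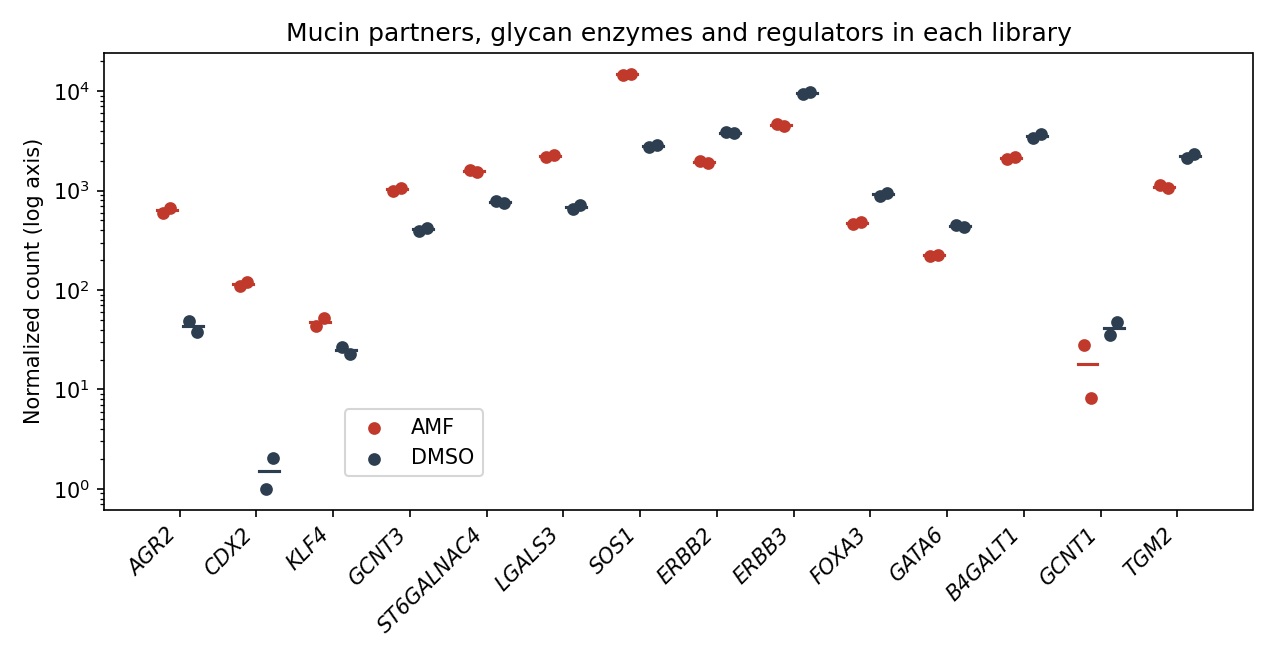
Normalized counts (y axis, logarithmic) of 14 genes (x axis) named from the lists of assembly factors, glycan extension, regulators and membrane partners, with AMF in red, DMSO in dark blue, a point per library and a line at each mean of 2. AGR2 and CDX2 show the widest gaps among those drawn, KLF4, GCNT3, ST6GALNAC4, LGALS3 and SOS1 sit higher in AMF, and ERBB2, ERBB3, FOXA3, GATA6, B4GALT1, GCNT1 and TGM2 sit lower.

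Among 24 partners of membrane mucins, 5 rose, 8 fell and 11 did not pass, with a median log2 change of 0.02. The share that passed was 54.2%, beside 31.8% of all genes tested. With only genes averaging 10 or more normalized counts fitted, 14 of 23 partners passed, beside 7752 of 15845 genes. LGALS3 (galectin-3), a lectin that binds mucin glycans, had 2164 and 2295 normalized counts in AMF replicates 1 and 2, against 654 and 723 in DMSO replicates 1 and 2 (1.70, SE 0.0684, limma adjusted p = 2.71e-10). SOS1, a Ras exchange factor that GRB2 brings to receptors and to the MUC1 tail, was at 14777 ± 199 in AMF and 2834 ± 92.2 in DMSO (SD, n = 2 each; 2.38). ERBB2, the receptor bound by MUC4, fell to 1963 and 1893 in AMF replicates 1 and 2, against 3854 and 3776 in DMSO replicates 1 and 2 (-0.98, SE 0.0504, limma adjusted p = 2.72e-09). Its partner ERBB3 fell by 1.06 (limma adjusted p = 4.63e-10). MSN (0.69), LGALS1 (0.47) and MMP14 (0.45), named after their values were seen, were the remaining rises. MET, the receptor bound by MUC20, was at 3748 and 4090 in AMF and 3847 and 4000 in DMSO, with overlapping groups. Without AMF replicate 1 or 2, voom called 5 genes of the list. Exons of ERBB2 overlap those of MIEN1 and PGAP3.

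Other mucins and mucin-like glycoproteins outside the 10 gave 8 tested genes of 12 with a row, of which 1 rose, 3 fell and 4 did not pass (median log2 change 0.19). Thus 4 of the 8 passed, beside 31.8% of all genes tested (15.6% upwards and 16.2% downwards). SELPLG, the P-selectin ligand of blood cells, had 43.6 and 28.8 normalized counts in AMF replicates 1 and 2, against 7.997 and 1.03 in DMSO replicates 1 and 2 (3.10, limma adjusted p = 0.00138). Its log2 change was 2.02 without DMSO replicate 2 and 4.17 without DMSO replicate 1. The sialomucin PODXL fell to 109 and 83.4 in AMF, against 212 and 165 in DMSO (-0.97, limma adjusted p = 6.45e-04). The adhesion molecule MCAM (-0.36, limma adjusted p = 5.29e-04) and CD164 (-0.28, limma adjusted p = 2.69e-04), named after its values were seen, fell as well. MUC15, MUC16, MUC19, MUC21 and MUC22 had at most 7 reads in any library. In voom, 0 genes of this list passed without AMF replicate 1 or 2. Exons of MCAM overlap those of CBL.

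**Figure D5:**
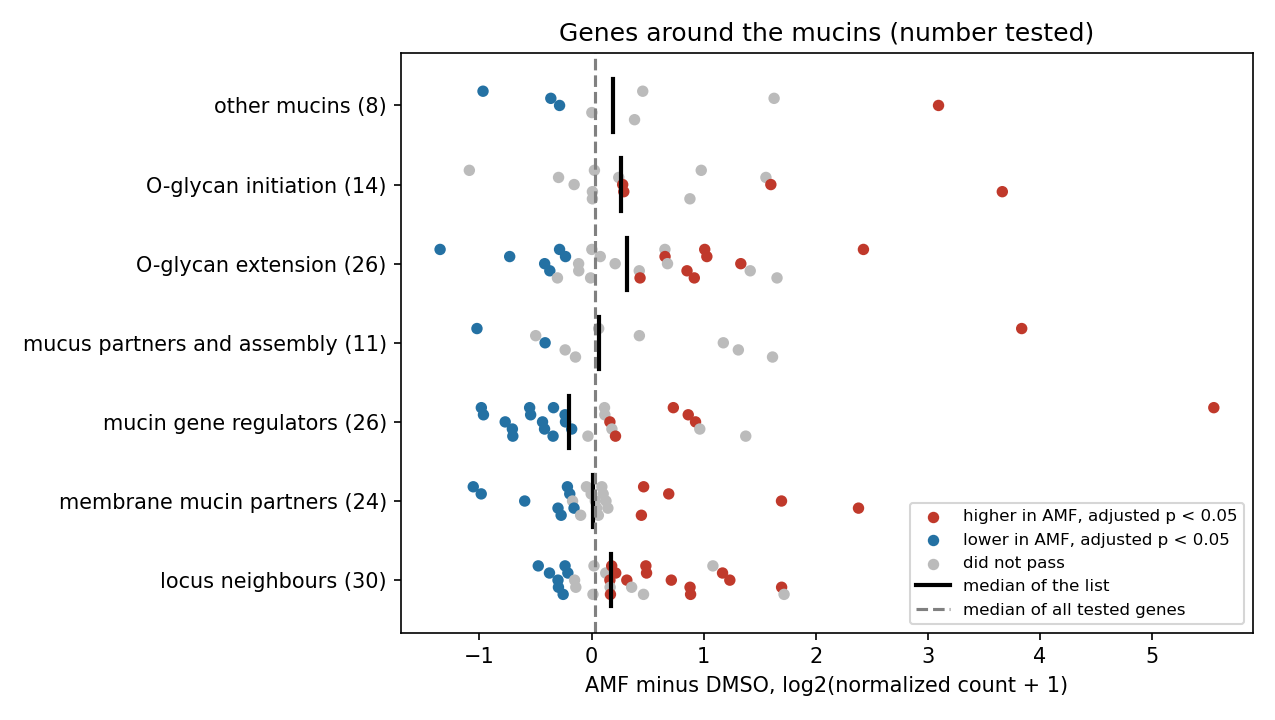
Log2 changes of AMF minus DMSO (x axis) for the tested genes of each list, in red where higher and blue where lower at an adjusted p under 0.05 and in grey otherwise, with a black bar at each list's median and a dashed line at the median of all genes tested (0.04). The medians run from -0.21 for the regulators to 0.32 for glycan extension, and CDX2 and AGR2 stand farthest to the right.

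Genes that flank the mucins were counted to place their levels in the surroundings. The 30 neighbours were the 3 nearest coding genes with a row on each side of every mucin, the 10 mucins left out. Of these neighbours, 13 rose, 7 fell and 10 did not pass, with a median log2 change of 0.17. The share that passed was 66.7%, beside 31.8% of all genes tested. With only genes averaging 10 or more normalized counts fitted, 21 of 29 neighbours passed, beside 7752 of 15845 genes. SLC12A8, near MUC13, had the largest rise among those that passed (1.70, limma adjusted p = 0.00589), at 25.1 and 31.9 normalized counts in AMF and 8.997 and 7.19 in DMSO. Its call was lost in limma-trend without any 1 of the 4 libraries (adjusted p of 0.0717 to 0.184) and in voom without AMF replicate 1 or 2 or DMSO replicate 2 (0.0759, 0.10 and 0.0502). TFRC, the transferrin receptor near MUC4 and MUC20, had the largest fall among them (-0.47, limma adjusted p = 1.63e-06). The 3 neighbours on each side of the group of 4 on chromosome 11 were named after their values were seen. Before the group, TSPAN4 changed by 0.49, CHID1 by 0.18 and AP2A2 by 0.17. After it, TOLLIP changed by 0.16, BRSK2 by 0.88 and MOB2 by -0.14, and MOB2 did not pass. A link between these changes and those of the mucins was not tested. Leaving out AMF replicate 1 or 2 left 2 and 3 of the 30 called by voom.

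Markers of other cell types were set beside these results. Bile duct markers summed to 35413 and 36077 normalized counts in AMF replicates 1 and 2, against 23822 and 23231 in DMSO replicates 1 and 2. Of the 5 with a row, KRT19 (0.97) and SPP1 (1.49) rose, SOX9 and EPCAM fell, and KRT7 was at 4.64 and 7.21 in AMF and 8.997 and 2.05 in DMSO. Intestinal goblet cell markers summed to 772 and 742 in AMF and 1048 and 957 in DMSO, nearly all of it FCGBP, with SPINK4, ZG16 and TFF3 under 10 in every library. Gastric surface and neck markers summed to 628 and 528.5 in AMF and 1703 and 1711 in DMSO, nearly all of it the pepsinogen PGC, which fell by 1.57. Fibroblast markers summed to 32.5 and 23.7 in AMF and 211 and 195 in DMSO, and leukocyte and endothelial markers to 316 and 290.5 in AMF and 153 and 186 in DMSO. CLCA1, REG4, ITLN1, TFF2, GKN1, GKN2, CFTR and PTPRC were not analysed here. Of the markers with a row, FCGBP, TFF1, TFF3, SPINK4, ZG16 and SOX9 stand in a marker list and in a list above as well, and 7 of the 10 hepatocyte markers fell while 1 rose. The part of other cell types in the mucin values was not tested.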

How the data were processed

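The authors deposited a table of log2 values for 30863 genes in 4 libraries, with gene symbols as identifiers. Per the submitters' processing notes STAR 2.7.0, featureCounts and hg19 were used; the sources used here give neither annotation nor normalization. Each column name matched the label of 1 sample. All values were at least 6.01, and their form was that of a variance-stabilizing transformation, which is read from the values. It was inverted to normalized counts, and 100% of these came out as whole reads within 0.01 after division by the worth of 1 read.

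Tests used limma 3.58.1 (limma-trend, R 4.3.3) on log2(normalized count + 1), for 23828 genes averaging 1 or more, without covariates, and p-values were adjusted over all of them by Benjamini-Hochberg. The script was tested on simulated data. Genes and lists were chosen with earlier results of these data known. All 10 mucins were named; from each of 7 lists came up to 2 rises and 2 falls past an adjusted p of 0.05 with a mean of at least 10, the largest by log2 change (1 and 1 for neighbours), and for the mucins with the largest rise and fall the 3 nearest profiles. Lengths, overlaps and transcripts came from GENCODE release 29 and gene order from RefSeq GRCh38.p14, another build than hg19. Alternatives were another pseudocount, 2 filters, each library left out, a replicate block, the deposited scale, library totals and voom; voom without each library was added after seeing the data. Figures used matplotlib 3.10.9.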

Additional observations from a re-analysis of the deposited data

How the results depend on the processing

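Leaving out 1 library moved the counts of calls most. With limma-trend, the calls ranged from 0 to 3531 over all genes (7578 with all libraries), 0 to 2 of the 10 mucins (4), 0 to 2 of the other mucins (4), 0 to 3 for glycan initiation (4), 0 to 9 for glycan extension (14), 0 to 3 for mucus partners (3), 0 to 15 for regulators (20), 0 to 9 for membrane partners (13) and 0 to 8 for neighbours (20). The value of 0 came without AMF replicate 1 or 2, where the prior degrees of freedom of the fit were 0.995 and 1.0, against 11.9 with all libraries. The lone library left in a group is assumed to vary like the other group. With voom on the recovered reads, chosen after seeing the data, the counts without AMF replicates 1 and 2 were 1379 and 1315 genes, 1 and 1 mucins, 0 and 0 other mucins, 0 and 0 for initiation, 5 and 4 for extension, 13 and 13 for regulators, 5 and 5 for membrane partners and 2 and 3 for neighbours; without DMSO replicate 2, 2 genes for initiation passed.

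Replicate numbers were shared between the groups, but the deviations of same-numbered libraries correlated at r = 0.014 over 15845 genes in only 2 pairs, so pairing was not established. With the replicate number as a block, 8157 genes and 5 of the 10 mucins passed. The other settings (pseudocount 0.1, no filter, a mean of at least 10, the deposited log2 scale, library totals and voom) gave 6580 to 7752 genes and 4 or 5 mucins, all within 1.5 times the count given. On the deposited log2 scale, which compresses low counts, all 10 mucins kept their direction with smaller changes: 3.05 for MUC5AC, 0.57 for MUC20, 0.37 for MUC2, 0.30 for MUC6, 0.26 for MUC3A and -0.49 for MUC5B, and for the other 4 the shift was within the spread between replicates: MUC1 (0.09), MUC4 (-0.05), MUC12 (0.15) and MUC13 (0.12). Depth limits MUC1, MUC4 and MUC12, each with at most 10 reads in any library, and no difference smaller than their counting intervals can be seen.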
